A study of Mus musculus with 9 samples.

Results

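This account compares a mouse embryonic fibroblast line that carries mouse Ape1 with a vector control line, over 6 of the 9 arrays of the series. The members are the 3 arrays titled mouse Ape1 and the 3 titled vector control. The other 3 arrays belong to a line titled human APE1. They were part of the same fit, so they add to the estimate of spread behind every standard error and p-value. For some genes a test of the mouse Ape1 line against the human APE1 line is given as well. All 3 lines are male embryonic fibroblasts from mice described as isogenic to C56BL/6, and all share 1 APE1 genotype, mApe1-/- with a human APE1 transgene (hAPE1TG). The vector control is therefore not free of human APE1, whose level in the parent line is put at 0.2% of a normal fibroblast by the series' design text, and at about 1:500 of either complemented line by the header of the authors' deposited table. Cells were in logarithmic growth at semi-confluency in 60 mm dishes with 10% fetal bovine serum, and RNA came from 3 dishes of each line. Each group is thus 1 cell line, and its replicates are dishes, so every p-value measures the spread between dishes and a difference cannot be told apart from other differences between these 2 lines. The mouse gene Apex1 itself was not analysed here, so its level was not used to check the labels.

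APE1, the product of APEX1, cuts the DNA backbone at abasic sites, the step of base excision repair that follows removal of a damaged base by a glycosylase. The same protein is also called Ref-1, because it keeps transcription factors such as AP-1, NF-kB, p53 and HIF-1 in a reduced form that binds DNA. Complete loss of the mouse gene is lethal to the embryo, which is why cells lacking it are usually kept alive by some other source of the protein. The comparison asks, across all genes, how the transcriptome of such a line differs with mouse Ape1 in place of an empty vector.

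Values are log2 signals of whole-transcript arrays after RMA, a multi-array background correction, normalisation and summary, and a difference of 1 is a 2-fold difference on that scale. Differences are mouse Ape1 minus vector control and are followed by the standard error from limma, fitted to 3 arrays a line. A gene is said to have risen or fallen when its Benjamini-Hochberg adjusted p over all 41345 transcript clusters was under 0.05. RMA compresses differences of dim transcripts, and no fold is given for a gene whose mean in either line lay under the 25th percentile of the arrays, which was 4.27 to 4.32 in the vector control and 4.32 to 4.34 in the mouse Ape1 line. Replicate arrays of 1 line correlated at r 0.990 to 0.993 over all transcript clusters, and arrays of different lines at 0.977 to 0.984. The fibroblast marker list had medians of 8.85 to 9.02 on the vector control arrays and 8.43 to 8.52 on the mouse Ape1 arrays, with 15 of 17 markers above the median of all values, and 3 of the 17 rose and 8 fell by the test given here, or 1 and 8 with array medians and 2 and 5 with chromosome medians subtracted. The 9 marker lists of other cell types had medians between 4.58 and 6.11 in both lines. Of the fibroblast markers, Lum, the proteoglycan lumican, was at background in both lines, with 3.17, 3.05 and 3.05 on the vector control arrays and 2.97, 3.05 and 3.05 on the mouse Ape1 arrays.

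Of 41345 transcript clusters, 6681 differed between the lines, which is 16.2%. The 3758 that rose are 9.09% and the 2923 that fell are 7.07%, against 28.4% with an unadjusted p under 0.05. Counted over 24647 gene symbols, each at its brightest transcript cluster, 4917 were called, or 19.9%, of which 2404 rose (9.75%) and 2513 fell (10.2%). At least 2-fold changes were few, with 222 genes up (0.901%) and 250 down (1.01%). All 3 mouse Ape1 values lay above all 3 vector control values in 17% of genes and below them in 20.9%. Among the 13463 genes with a mean above the median of all values, 33.2% were called, 16.5% up and 16.7% down. The balance of directions depended on scaling, since rises made up 48.9% of called genes as deposited and 36.1% once each array's median was subtracted. Against the human APE1 line 4081 genes were called, or 16.6%. The list counts that follow are to be read against the backgrounds of 9.75% and 10.2%, or 16.5% and 16.7% for a list of expressed genes. A gene is counted as expressed when its mean lay above the median of all values. Shares of most list counts stand in brackets.

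The largest rise was in Prl, which encodes prolactin, a pituitary hormone of lactation. Its signal was 4.44, 4.14 and 4.16 on the vector control arrays and 11.48, 11.73 and 11.48 on the mouse Ape1 arrays, while the human APE1 arrays read 3.80, 4.74 and 4.02. The gene was low on all 6 arrays of the other lines and bright on all 3 mouse Ape1 arrays, with no overlap. The difference was 7.32 ± 0.22 with an adjusted p of 1.28e-06, and 7.38 against the human APE1 line (adjusted p = 2.00e-06), and no fold is given because the vector control was dim. The authors' deposited table gives Prl means of 4.11 and 11.2 for the same groups. Because Prl led the comparison, the 250 bases before its start site are shown from RefSeq (GRCm38.p6, chr13:27057320-27057569, plus strand), with capitals marking matches to ATGNATA, a Pit-1-like motif searched on both strands, and to TATAAA, also on both strands.
Prl promoter: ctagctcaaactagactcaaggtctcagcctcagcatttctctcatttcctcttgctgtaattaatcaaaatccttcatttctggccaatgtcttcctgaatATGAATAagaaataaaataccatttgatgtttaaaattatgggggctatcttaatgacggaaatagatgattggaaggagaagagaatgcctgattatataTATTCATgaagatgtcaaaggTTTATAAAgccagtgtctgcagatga
The window holds 2 matches to ATGNATA, which 7.92% of 32851 RefSeq promoters of the same annotation hold at least once, and TATAAA is held by 12.4%.

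The placental relatives Prl3d1, Prl3d3 and Prl7a2 also rose. Prl3d1, a placental lactogen of trophoblast giant cells, read 5.11, 4.95 and 4.85 on the vector control arrays and 6.24, 6.03 and 6.13 on the mouse Ape1 arrays, so the lines did not overlap. Its difference was 1.16 ± 0.23 (adjusted p = 0.012), that of Prl3d3 was 1.40 ± 0.21, and these 2 are near-identical copies whose probes may not tell them apart. Prl7a2 read 3.26, 3.21 and 3.32 on the vector control arrays and 4.56, 4.60 and 4.47 on the mouse Ape1 arrays, a small step near background with a difference of 1.28 ± 0.07 (adjusted p = 2.14e-05). In the RefSeq order of measured genes on chromosome 13, Prl3d1 and Prl3d3 are the next 2 genes on one side of Prl. The 6 genes after those had differences from -0.14 to 0.03 and the neighbour on the other side, Hdgfl1, had -0.10, none of which was called. Farther on that side, 2 of the next 9 measured genes were called, Gm11351, a predicted gene at background in both lines, with a difference of 0.71, and Aldh5a1, an enzyme of GABA breakdown, with -0.97. Of 35 measured members of the prolactin family and its signalling, 10 of them expressed, these 4 rose (11.4%) and 3 fell (8.57%). The median was 0.02, against -0.03 over all genes. The 3 falls were small ones in signalling genes, among them Ghr (-0.32), the growth hormone receptor, and their number was 1 without vector control array 2 or mouse Ape1 array 1 or 3, and 0 with chromosome medians subtracted, where 7 members rose and the median was 0.16. With array medians subtracted the counts were 4 and 3 and the median -0.04. The prolactin receptor gene Prlr was at background, with 3.82, 3.94 and 3.82 on the vector control arrays and 3.89, 3.89 and 3.89 on the mouse Ape1 arrays, as was Pou1f1, which encodes the pituitary factor Pit-1, with 3.12, 3.18 and 3.36 on the vector control arrays and 3.18, 3.53 and 3.34 on the mouse Ape1 arrays. Of the 8 lactotroph markers only Prl was called, with Gh (growth hormone) at 4.77, 4.74 and 4.48 on the vector control arrays and 4.45, 4.63 and 4.61 on the mouse Ape1 arrays. Of the 11 trophoblast markers Prl3d1 and Eomes rose, 4 were higher in the mouse Ape1 line, the median difference was -0.07, and the median level was 4.85 to 5.11 in the vector control and 5.42 to 5.60 in the mouse Ape1 line. Eomes, a T-box factor of trophoblast and mesoderm, read 5.79, 5.65 and 5.74 on the vector control arrays and 6.64, 6.65 and 6.67 on the mouse Ape1 arrays and rose by 0.93 ± 0.06 (adjusted p = 5.98e-05).

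The remaining leading rises were spread over enzymes, receptors and adhesion proteins. Aldh1a1, a retinaldehyde dehydrogenase that makes retinoic acid, read 6.09, 6.51 and 6.54 on the vector control arrays and 9.92, 9.82 and 9.94 on the mouse Ape1 arrays. These groups lay far apart, with a difference of 3.51 ± 0.18 (11.4-fold, adjusted p = 1.68e-05) and human APE1 values of 6.33, 5.67 and 5.85, below those of the mouse Ape1 line. Ptprq, a receptor-type phosphatase known from inner-ear hair cells, rose by 3.28 ± 0.10 (9.7-fold) from values of 7.37, 7.29 and 7.45 to 10.69, 10.58 and 10.67. Htra1, a secreted serine protease that degrades matrix proteins, rose by 3.27 ± 0.12 (9.67-fold, adjusted p = 3.88e-06), with 5.88, 5.94 and 5.58 on the vector control arrays and 9.24, 8.98 and 9.0 on the mouse Ape1 arrays. Tll1, a tolloid-family metalloprotease that releases BMPs from their inhibitor chordin, was high already in the vector control at 7.83, 7.87 and 7.83 and reached 10.50, 10.47 and 10.40, a difference of 2.62 ± 0.06, while the human APE1 arrays were lower than both at 6.99, 6.96 and 6.88. For Igsf11, an immunoglobulin-type adhesion molecule, the order was vector control, human APE1, mouse Ape1 without overlap, with 6.38, 6.74 and 6.95, 8.03, 8.04 and 8.11 and 9.71, 9.72 and 9.69. Mcam, the adhesion molecule CD146, had the same order with 7.68, 7.58 and 7.76, then 9.51, 9.43 and 9.58, then 10.01, 10.06 and 10.06. Their rises were 3.02 ± 0.13 and 2.37 ± 0.07. The other leading rises were Zdhhc15 (3.38), a palmitoyltransferase, Slc35f2 (3.14), a membrane transporter, Rps6ka6 (2.87), the ribosomal S6 kinase RSK4, Neto2 (2.67), an auxiliary subunit of kainate receptors, Sytl5 (2.65), a vesicle-docking protein, Mcpt8 (2.65), a basophil protease and Sorbs2 (2.52), an adaptor of actin and adhesion sites. Zdhhc15 was dim in the vector control, and its difference has no sure size.

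The largest difference downward was that of Rbmy1a1, a multicopy gene of the Y chromosome that encodes a germ-cell RNA-binding protein. It was outside the rule for named genes and is named after its values were seen, and which copy was measured is uncertain. It read 10.29, 10.11 and 10.14 on the vector control arrays and 3.53, 3.56 and 3.84 on the mouse Ape1 arrays, and 3.55, 3.31 and 3.64 on the human APE1 arrays, with an adjusted p of 6.03e-08, and no fold is given because it was dim in the mouse Ape1 line. Leaving out predicted, receptor-cluster and multicopy symbols, the largest fall was in Acta2, smooth muscle actin, the marker of contractile myofibroblasts. Acta2 was among the brightest genes of the vector control, with 11.95, 11.93 and 11.98, and read 7.80, 7.52 and 7.48 in the mouse Ape1 line and 8.27, 7.98 and 8.30 in the human APE1 line. The difference was -4.35 ± 0.11 (20.4-fold, adjusted p = 6.02e-07), and the mouse Ape1 line was also below the human APE1 line (difference -0.58, adjusted p = 0.0116). Fgf7, a mesenchymal growth factor that acts on epithelia, differed in another way. It read 9.41, 9.42 and 9.32 in the vector control and 9.25, 9.24 and 9.22 in the human APE1 line but 6.20, 6.39 and 6.14 in the mouse Ape1 line, which was lower by 3.14 ± 0.08 (8.82-fold, adjusted p = 3.55e-07) with a difference of -2.99 against human APE1 (adjusted p = 1.05e-06). Emb, or embigin, a partner of lactate transporters, was lower in both complemented lines, with 9.44, 9.30 and 9.25 in the vector control, 6.09, 6.13 and 5.72 with mouse Ape1 and 4.89, 5.00 and 5.50 with human APE1. Its difference was -3.35 ± 0.17, and the mouse Ape1 line was above the human APE1 line by 0.85 (adjusted p = 0.0148). Dcn, the collagen-binding proteoglycan decorin, read 8.85, 8.91 and 8.86 on the vector control arrays and 5.71, 5.31 and 5.74 on the mouse Ape1 arrays, a difference of -3.29 ± 0.14, and did not differ by the test from the human APE1 line (-0.23, adjusted p = 0.372). The other leading falls were C3 (-2.71), the central complement protein, Anpep (-3.19) and Enpp3 (-2.75), both cell-surface enzymes, Sdpr (-2.86), a caveola protein, Clmn (-2.76), an actin-binding protein, Adh7 (-2.72), an alcohol dehydrogenase that also oxidises retinol, Fas (-2.71), a death receptor, Lox (-2.70), the collagen-crosslinking lysyl oxidase, Cdh11 (-2.68), a mesenchymal cadherin, and Thbs2 (-2.67), an antiangiogenic matrix protein. Clmn ended near background in the mouse Ape1 line, so its difference has no sure size. The next genes in order, just outside the 15 on each side, were Renbp at 2.33 and Flrt1 at -2.62, against 2.37 and -2.67 for the last ones inside.

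**Figure D1:**
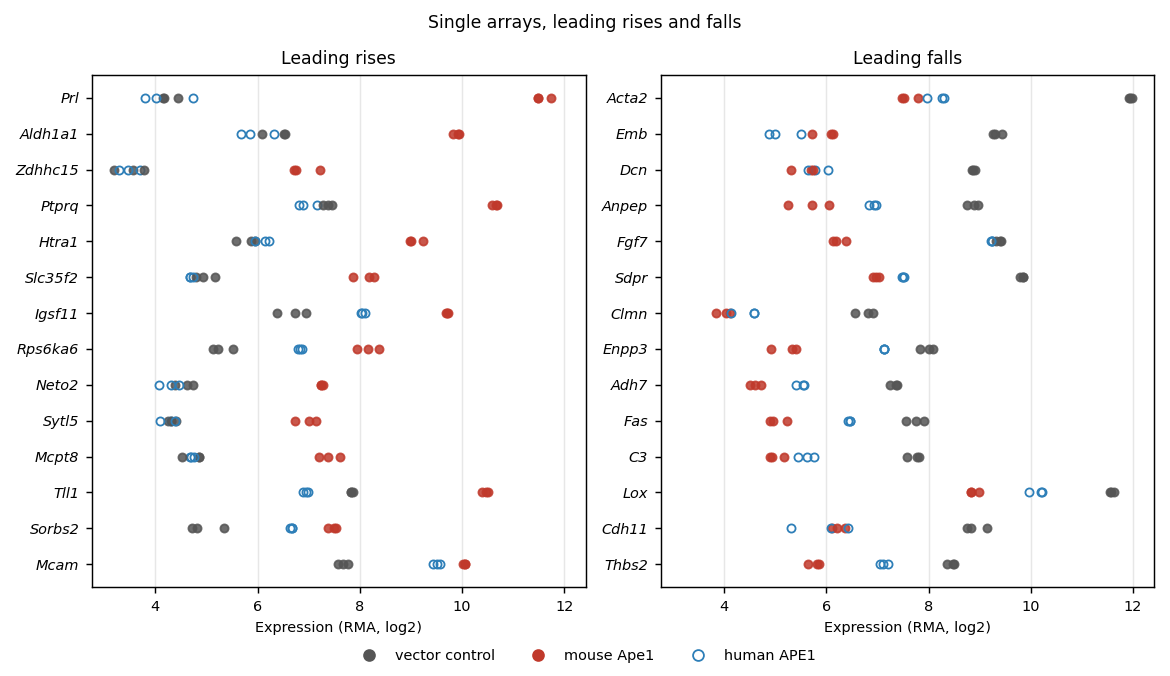
Single-array expression of the leading rises and leading falls named in the text, without Rbmy1a1, as RMA log2 values on the horizontal axis. Each filled point is 1 array of the vector control (grey) or mouse Ape1 line (red) and each open point 1 array of the human APE1 line. Prl is at background in the vector control and human APE1 lines and above 11 in the mouse Ape1 line, and Fgf7 is high in both of the others and low in the mouse Ape1 line.

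Genes of retinoid metabolism went both ways. Besides Aldh1a1, its close relative Aldh1a7 rose by 0.54 ± 0.10, and whether the Aldh1a7 probes also read Aldh1a1 was not tested. Of the 24 members, 12 of them expressed, 2 rose (8.33%) and 5 fell (20.8%), and the median of the list was -0.07. With chromosome medians subtracted 4 rose and 3 fell, with a median of 0.02. Among the falls was Tgm2, transglutaminase, a retinoid-induced gene (-0.38). The falls numbered 2 without vector control array 2 or 3 or mouse Ape1 array 1 and 3 without vector control array 1 or mouse Ape1 array 2 or 3.

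**Figure D2:**
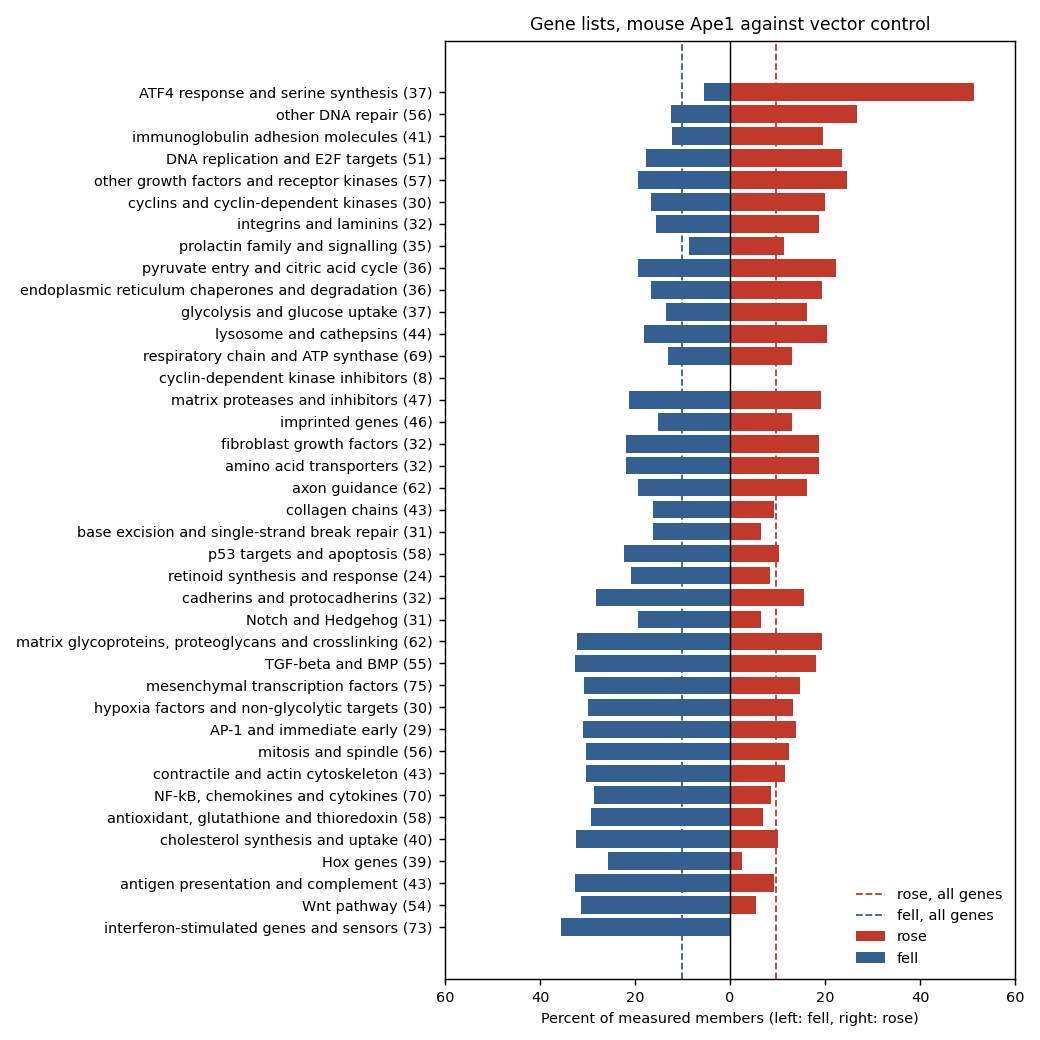
Percent of measured members of 39 gene lists that rose (red, to the right) or fell (blue, to the left) in the mouse Ape1 line against the vector control, with the number measured in brackets. Dashed lines mark the shares over all 24647 genes, 9.75% and 10.2%. The shares over expressed genes, 16.5% and 16.7%, are not drawn. They are the background for lists of mostly expressed genes, such as mitosis and spindle (56 of 56 members expressed). The respiratory chain (67 of 69) and ATF4 (36 of 37) lists are others. The ATF4 list has the largest share of rises and the interferon list the largest share of falls, with no rise.

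The list with the largest share of rises was that of ATF4, the transcription factor of the amino acid and unfolded protein stress response, and of serine synthesis. Of 37 members, 36 of them expressed, 19 rose (51.4%) and 2 fell (5.41%), with a median of 0.25. With array medians subtracted 13 rose and 2 fell, and with chromosome medians subtracted 22 rose and 1 fell. Cth, cystathionine gamma-lyase, the last enzyme of cysteine synthesis from methionine, read 6.83, 7.05 and 6.82 on the vector control arrays and 9.16, 9.10 and 9.21 on the mouse Ape1 arrays. The lines were well apart, by 2.26 ± 0.09 (4.78-fold, adjusted p = 5.22e-06), and the mouse Ape1 line was above the human APE1 line by 1.88 (adjusted p = 1.92e-05). Aldh1l2, a mitochondrial enzyme of folate metabolism, read 7.56, 7.57 and 7.56 on the vector control arrays and 8.75, 8.57 and 8.89 on the mouse Ape1 arrays, a rise of 1.17 ± 0.10. Chac1, which degrades glutathione, rose by 1.01 ± 0.07 from 7.37, 7.41 and 7.26 to 8.36, 8.31 and 8.37 and did not overlap. Sesn2, a stress-induced inhibitor of mTORC1, rose by 1.03 ± 0.07, and Gpt2, mitochondrial alanine aminotransferase, by 1.00 ± 0.06. Along serine synthesis, Psph (0.71 ± 0.06) and Psat1 (0.46 ± 0.08) rose, and so did the folate enzyme Mthfd2 (0.47 ± 0.06) and asparagine synthetase Asns (0.38 ± 0.05). The first enzyme of the route, Phgdh, had a difference of 0.41 ± 0.09 and lost its call with array medians subtracted or without vector control array 3 or mouse Ape1 array 1 or 3. Of the aminoacyl-tRNA synthetases, Yars rose by 0.36 ± 0.06, and Wars (0.43), Aars (0.34), Mars (0.33) and Nars (0.25) rose too. The calls of Aars and Nars were lost with array medians subtracted, and that of Wars with chromosome medians subtracted. Tars at -0.05 ± 0.05 and Eprs at -0.06 ± 0.05 were not called. Atf4 itself did not differ by the test, with 11.27, 11.16 and 11.20 on the vector control arrays and 11.16, 11.20 and 11.25 on the mouse Ape1 arrays (-0.01 ± 0.06, adjusted p = 0.95). Other known targets, Trib3 (0.39) and Ddit3 (0.16), were not called, and Cebpb, which encodes the factor C/EBP beta, fell by 0.64 ± 0.07. The second fall, of Stc2, was lost in 5 of the 6 fits without 1 array, leaving 1 fall without vector control array 1 or 2 or without any single mouse Ape1 array.

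Amino acid transporters went both ways, with 6 of 32 up (18.8%) and 7 down (21.9%), and 26 of the 32 were expressed. Of all expressed genes 16.5% rose and 16.7% fell. The arginine and lysine transporters Slc7a1 and Slc7a3 rose by 0.91 ± 0.06 and 1.31 ± 0.09, and Slc1a4, a carrier of neutral amino acids, by 0.47 ± 0.07. Slc7a2, another arginine transporter, fell by 2.32 ± 0.13. Slc7a11, the cystine importer of the glutathione pathway, read 8.20, 8.26 and 8.05 on the vector control arrays and 6.84, 6.83 and 6.92 on the mouse Ape1 arrays, with a difference of -1.30 ± 0.08 (adjusted p = 4.44e-05).

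No measured interferon-stimulated gene or nucleic acid sensor rose. Of 73 members 26 fell (35.6%), with a median of -0.21, and 41 of the 73 had a mean above the median of all values. Ifi204, a DNA sensor of the p200 family, read 6.96, 7.05 and 6.92 on the vector control arrays and 5.02, 4.61 and 4.97 on the mouse Ape1 arrays, lower without overlap, with a difference of -2.11 ± 0.24 (adjusted p = 0.000854). Its family has near-identical copies, so the value may be shared with them. Ifitm3, a membrane protein that blocks virus entry, read 9.86, 9.75 and 9.93 on the vector control arrays and 8.26, 8.60 and 8.43 on the mouse Ape1 arrays, a difference of -1.41 ± 0.09. Bst2, or tetherin, which holds budding virus at the cell surface, read 10.16, 10.19 and 10.26 on the vector control arrays and 9.27, 9.42 and 9.38 on the mouse Ape1 arrays, a difference of -0.85 ± 0.06. The groups overlapped in neither. Further falls were Lgals9 (-1.23), a galectin, Gbp2 (-1.09), a guanylate-binding protein, Trim25 (-1.07), a ubiquitin ligase of RNA sensing, Ifit1 (-0.97), an RNA-binding effector, and Isg15 (-0.66), a ubiquitin-like protein. Of the signalling genes, the factors Irf9 (-0.72 ± 0.10) and Irf1 (-0.65 ± 0.07) and one chain of the interferon gamma receptor, Ifngr1 (-0.70 ± 0.07), fell, while the factors Irf2, Irf5, Irf7 and Irf8 were not called. The type I receptor chain Ifnar1 was not called (0.17 ± 0.07), and Ifnb1, interferon beta, was at background with 3.91, 3.45 and 3.92 on the vector control arrays and 3.91, 3.91 and 3.88 on the mouse Ape1 arrays. Several classical targets did not pass the test, including Mx1 (-0.15 ± 0.14), Rsad2 (-0.11 ± 0.09), Usp18 (-0.18 ± 0.13) and Ifit3 (0.20 ± 0.14). The number of falls was between 21 and 24 in fits without 1 array.

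As examples, 4 fallen members that hold an interferon-response-element-like motif are shown, although most fallen members with a promoter lacked it. For each, 120 bases near the start site are given from RefSeq (GRCm38.p6), 5′ to 3′ on the gene's strand. Capitals mark matches to the motif, GAAA followed after any 2 bases by another GAAA, searched on both strands, overlapping matches included.
Ifit1 (chr19:34640739-34640858, plus): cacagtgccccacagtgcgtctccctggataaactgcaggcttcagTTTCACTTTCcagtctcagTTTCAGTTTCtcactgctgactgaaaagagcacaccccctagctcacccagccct
Gbp2 (chr3:142620543-142620662, plus): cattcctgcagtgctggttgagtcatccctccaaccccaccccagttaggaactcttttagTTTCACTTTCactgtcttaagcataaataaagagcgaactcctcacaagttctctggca
Bst2 (chr8:71537535-71537654, minus): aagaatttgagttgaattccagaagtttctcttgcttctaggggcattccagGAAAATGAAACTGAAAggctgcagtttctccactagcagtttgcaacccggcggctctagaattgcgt
Isg15 (chr4:156200826-156200945, minus): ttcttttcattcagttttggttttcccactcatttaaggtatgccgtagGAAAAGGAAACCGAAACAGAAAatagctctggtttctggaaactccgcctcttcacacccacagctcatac
The motif was in 23 of the 56 members with a RefSeq promoter, in the 250 bases before the start site, and in 2.98% of all 32851 such windows. It was in 8 of the 23 fallen members with a promoter and in 15 of the 33 that were not called.

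**Figure D3:**
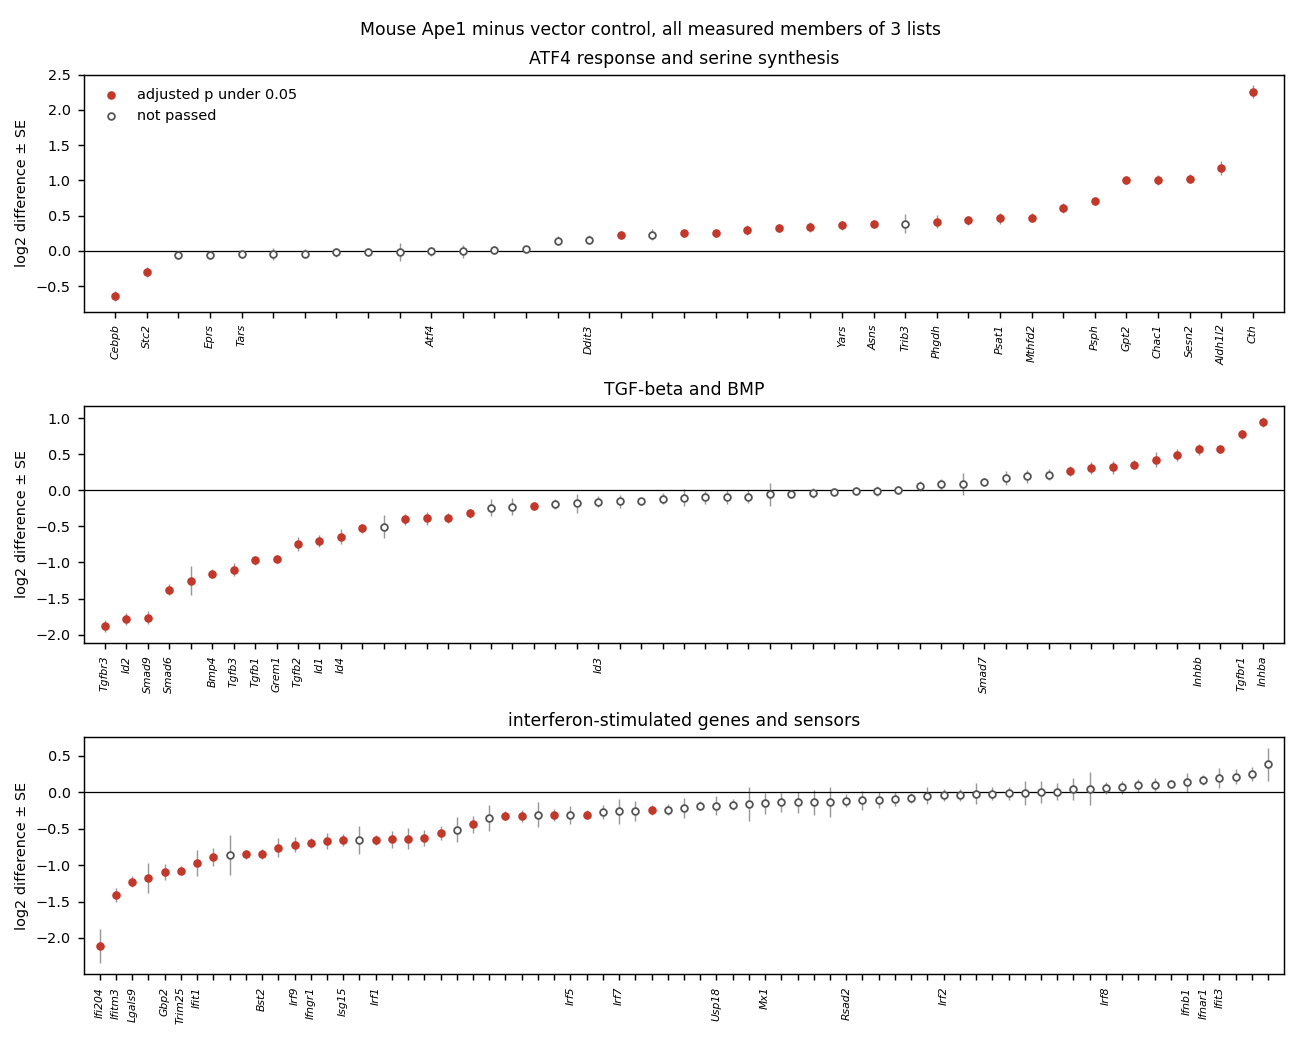
Difference between the mouse Ape1 line and the vector control for each measured member of 3 lists, ordered by size. Some of the members given in the text are named, and bars are the standard error on the log2 scale. Filled points passed an adjusted p under 0.05. The ATF4 list runs from Cebpb below 0 to Cth at 2.26, the TGF-beta and BMP list from Tgfbr3 at -1.88 to Inhba at 0.95, and no filled point of the interferon list lies above 0.

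Among 43 genes of antigen presentation and complement, 25 of them expressed, 14 fell (32.6%) and 4 rose (9.30%). The complement gene C3, named above, belongs here. H2-K1, a classical MHC class I heavy chain, read 9.25, 9.24 and 9.19 on the vector control arrays and 8.32, 8.46 and 8.25 on the mouse Ape1 arrays and fell by 0.88 ± 0.07 (adjusted p = 0.000145). Tapbp, the peptide-loading chaperone tapasin, fell by 0.60 ± 0.12. The Q-region genes H2-Q4 (-1.10) and H2-Q6 (-1.49) also fell, but class I genes are so alike that their probes may read one another. Ulbp1, a stress ligand of the killer-cell receptor NKG2D, was among the 4 that rose. It read 7.00, 6.94 and 7.03 on the vector control arrays and 8.58, 8.52 and 8.54 on the mouse Ape1 arrays, a rise of 1.56 ± 0.09 (adjusted p = 3.19e-05), while the human APE1 line was lower than the vector control at 5.83, 5.46 and 5.64. H2-M3, which presents formylated peptides, rose by 0.98 ± 0.10. Raet1e, another NKG2D ligand of this list, fell by 0.54.

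NF-kB is one of the factors that Ref-1 is known to act on. Of 70 NF-kB subunits, regulators, chemokines and cytokines, 40 of them expressed, 20 fell (28.6%) and 6 rose (8.57%), with a median of -0.13. Among chemokines, Ccl2, which draws monocytes, read 8.95, 8.60 and 8.88 on the vector control arrays and 7.10, 6.67 and 6.84 on the mouse Ape1 arrays, a difference of -1.94 ± 0.13 (3.84-fold, adjusted p = 5.82e-05). Cxcl1, which draws neutrophils, fell by 1.69 ± 0.15, and for both the human APE1 line had smaller differences from the vector control, of -0.32 and -0.12. The tests of mouse Ape1 against human APE1 gave -1.62 (adjusted p = 0.000163) and -1.57 (adjusted p = 0.000374). Ccl17, a lymphocyte chemokine, moved the other way, with 5.83, 5.91 and 6.14 on the vector control arrays and 7.89, 7.78 and 8.01 on the mouse Ape1 arrays and a difference of 1.93 ± 0.10. Of the receptors, Il1r1 for interleukin-1 fell by 1.60 ± 0.08, and the shared chain Il6st fell by 0.74 ± 0.06. Of the factors themselves, Nfkb2 (-0.70 ± 0.05), Relb (-0.72 ± 0.07) and Rel (-0.55 ± 0.05) fell, as did the inhibitor Nfkbie (-1.28 ± 0.09). Rela, which encodes p65, had -0.17 ± 0.06 and Nfkb1 had 0.00 ± 0.05.

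AP-1 is another factor that Ref-1 is known to act on. Its members and immediate early genes showed 4 rises (13.8%) and 9 falls (31.0%) among 29, of which 26 were expressed. Falls numbered 5 without mouse Ape1 array 3. Jun rose by 0.41 ± 0.08, from 10.38, 10.52 and 10.38 to 10.94, 10.79 and 10.78. Fos fell by 0.55 ± 0.06, from 6.66, 6.69 and 6.81 to 6.16, 6.13 and 6.23, so these partners of the same dimer went opposite ways without overlap. Jdp2, a repressor that pairs with Jun, rose by 1.18 ± 0.07 (adjusted p = 2.47e-05). Nr4a2, an orphan nuclear receptor, rose by 0.61 ± 0.08, and the zinc-finger factor Klf10 fell by 0.57 ± 0.07. Trp53, which encodes p53, read 11.41, 11.34 and 11.40 on the vector control arrays and 10.96, 11.08 and 11.04 on the mouse Ape1 arrays and fell by 0.36 ± 0.06 (adjusted p = 0.00632). Of 58 p53 targets and apoptosis genes, 50 of them expressed, 6 rose (10.3%) and 13 fell (22.4%). The falls included the death receptor Fas, the inflammatory caspase Casp4 (-2.40), the killer proteins Bcl2l11 (-0.76) and Bak1 (-0.57), and the antiproliferative Btg2 (-0.79). The survival genes Bcl2l1 and Cflar rose by 0.33 ± 0.07 and 0.53 ± 0.09. Cdkn1a, the p21 gene and a main p53 target, was not called (-0.12 ± 0.10, adjusted p = 0.477), and none of the 8 cyclin-dependent kinase inhibitors was, among them Cdkn2a at 0.09 ± 0.05, though 1 rose and 1 fell with chromosome medians and 1 fell with array medians subtracted. The Hif1a gene of the hypoxia factor lies on chromosome 12 and had 0.44 ± 0.05, a rise that was lost with chromosome medians subtracted. Its partner Arnt fell by 0.37 ± 0.05. Of the 30 hypoxia factors and non-glycolytic targets, 26 of them expressed, 4 rose (13.3%) and 9 fell (30%). With chromosome medians subtracted 7 rose and 8 fell, and rises numbered 2 without mouse Ape1 array 1. Angptl4 (-0.97), an inhibitor of lipoprotein lipase, and Car12 (-0.87), a carbonic anhydrase, were among the falls.

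Among 58 antioxidant, glutathione and thioredoxin genes, 49 of them expressed, 17 fell (29.3%) and 4 rose (6.90%), with a median of -0.12. The rises numbered 2 with array medians subtracted. The falls numbered 11 without vector control array 1 or mouse Ape1 array 1 or 3, and 12 with chromosome medians subtracted. Nqo1, a quinone reductase and standard target of the oxidant-sensing factor NRF2, read 9.78, 9.99 and 9.71 on the vector control arrays and 7.30, 7.47 and 7.07 on the mouse Ape1 arrays. That is 5.82-fold lower without overlap (-2.54 ± 0.12, adjusted p = 1.03e-05), and the human APE1 line was near the vector control at 9.61, 9.61 and 9.79. Glrx, glutaredoxin, fell by 1.60 ± 0.14, Txnip, the inhibitor of thioredoxin, fell by 1.19 ± 0.09, and Mgst1, a microsomal glutathione transferase, fell by 1.04 ± 0.11. Nfe2l2, which encodes NRF2, was not called (-0.11 ± 0.06), and Keap1, its inhibitor, rose by 0.54 ± 0.07. Sod3, extracellular superoxide dismutase, rose by 0.73 ± 0.10.

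Of 31 genes of base excision and single-strand break repair, the pathway of APE1 itself, 2 rose (6.45%) and 5 fell (16.1%), with a median of -0.08. As 30 of the 31 were expressed, the shares beside these are the 16.5% and 16.7% of expressed genes. With chromosome medians subtracted 1 rose and 4 fell and the median was 0.01. The falls numbered 2 without mouse Ape1 array 3 and 3 without vector control array 1 or 2 or 3 or mouse Ape1 array 1. Apex2, the second mammalian AP endonuclease, read 7.96, 7.91 and 8.05 on the vector control arrays and 8.34, 8.11 and 8.02 on the mouse Ape1 arrays, overlapping ranges with a difference of 0.18 ± 0.10 that was not called (adjusted p = 0.301). The mouse Ape1 line was above the human APE1 line for it, by 0.45 (adjusted p = 0.0241). Polb, DNA polymerase beta, which fills the gap APE1 opens, read 8.43, 8.35 and 8.30 on the vector control arrays and 8.86, 8.78 and 8.90 on the mouse Ape1 arrays and rose by 0.48 ± 0.06 (adjusted p = 0.00153). Nthl1, a glycosylase for oxidised pyrimidines, fell by 0.42 ± 0.07, and Lig3, a sealing ligase, fell by 0.37 ± 0.06. The glycosylases Ogg1 (-0.24 ± 0.09) and Ung (0.26 ± 0.08), the scaffold Xrcc1 (-0.18 ± 0.07) and the flap nuclease Fen1 (-0.04 ± 0.07) were not called. Of 56 other DNA repair genes, all expressed, 15 rose (26.8%) and 7 fell (12.5%). These counts were 10 and 9 with array medians and 8 and 3 with chromosome medians subtracted. Falls numbered 4 without vector control array 2. Brca2 (0.45) and Mre11a (0.39) of recombination, Ddb2 (0.42) of nucleotide excision repair and Msh6 (0.33) of mismatch repair were up. Fancd2 (-0.40) of crosslink repair was down.

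Among 43 contractile genes, Acta2 included and 38 of them expressed, 13 fell (30.2%) and 5 rose (11.6%). With chromosome medians subtracted 11 fell and 8 rose. Tagln, the actin-binding protein SM22, read 8.82, 8.50 and 8.74 on the vector control arrays and 6.25, 6.51 and 6.39 on the mouse Ape1 arrays, a difference of -2.31 ± 0.11 (4.95-fold, adjusted p = 1.08e-05), and Actg2, enteric smooth muscle actin, fell by 2.49 ± 0.28. Myl9, a myosin light chain, fell by 0.89 ± 0.09, Des, the muscle filament desmin, fell by 0.88 ± 0.10, and Vcl, vinculin of adhesion sites, fell by 0.53 ± 0.06. Flna, filamin A, rose by 0.54 ± 0.06 and Smtn, smoothelin, by 0.60 ± 0.05. The skeletal muscle marker list had medians of 5.98 to 6.11 in the vector control and 5.98 to 6.04 in the mouse Ape1 line.

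Collagen chains went both ways, with 4 up (9.30%) and 7 down (16.3%) of 43, and 27 of the 43 were expressed. The shares over all genes are 9.75% and 10.2%, and over expressed genes 16.5% and 16.7%. Col3a1, a fibrillar chain of elastic tissues, read 9.93, 9.88 and 10.06 on the vector control arrays and 8.89, 8.56 and 8.75 on the mouse Ape1 arrays and fell by 1.22 ± 0.09 (adjusted p = 0.000107), and Col12a1, a fibril-associated chain, fell by 1.56 ± 0.13. The microfibril chains Col6a1 and Col6a2 both fell, with differences of -0.67 ± 0.06 and -0.85 ± 0.07. Col4a5 and Col4a1, both of basement membrane, rose by 1.20 ± 0.08 and 0.30 ± 0.05, as did Col8a1 by 1.11 ± 0.08. Of the paired chains of type I collagen, Col1a2 rose by 0.52 ± 0.06, while Col1a1 had -0.32 ± 0.06, a fall lost with chromosome medians subtracted. Matrix glycoproteins, proteoglycans and crosslinking enzymes had 20 falls (32.3%) and 12 rises (19.4%) among 62, of which 48 were expressed. Rises numbered 7 without mouse Ape1 array 1 or 3 and 7 with array medians subtracted. Besides Dcn, Lox and Thbs2, the prolyl hydroxylase P4ha3 (-2.42), the microfibril protein Fbn1 (-1.78) and the hyaluronan synthase Has2 (-1.07) fell. Thbs1, thrombospondin 1, rose by 0.90 ± 0.07, opposite to Thbs2. Matrix proteases and their inhibitors had 9 rises (19.1%) and 10 falls (21.3%) of 47, of which 35 were expressed. Adamts5, an aggrecanase, rose by 1.25 ± 0.12, and Adam19, a membrane sheddase, fell by 1.73 ± 0.07.

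In the TGF-beta and BMP list 18 of 55 members fell (32.7%) and 10 rose (18.2%), and 44 of the 55 were expressed. Rises numbered 6 without vector control array 1 or mouse Ape1 array 3 and 6 with array medians subtracted. The ligands went both ways. Bmp4, a BMP ligand, read 9.12, 9.04 and 9.23 on the vector control arrays and 7.98, 7.97 and 7.97 on the mouse Ape1 arrays, a difference of -1.16 ± 0.06 (adjusted p = 2.14e-05), while the human APE1 line was close to the vector control at 9.05, 8.98 and 8.98. Tgfb1, Tgfb2 and Tgfb3 fell, with differences of -0.97 ± 0.06, -0.75 ± 0.10 and -1.10 ± 0.09, whereas the activin subunits Inhba and Inhbb rose by 0.95 ± 0.07 and 0.56 ± 0.08. Among antagonists, Grem1, which binds BMPs, fell by 0.95 ± 0.05. Among receptors, Tgfbr1 rose by 0.77 ± 0.06 and the co-receptor Tgfbr3 fell by 1.88 ± 0.08. Genes known as BMP targets were among the falls. Id2, an inhibitor of helix-loop-helix factors, read 10.56, 10.35 and 10.37 on the vector control arrays and 8.54, 8.77 and 8.62 on the mouse Ape1 arrays, a difference of -1.78 ± 0.08 (3.45-fold, adjusted p = 1.05e-05), and it was below the human APE1 line (difference -1.71, adjusted p = 1.90e-05). Id1 and Id4 fell, with differences of -0.71 ± 0.09 and -0.64 ± 0.10, and so did the signal transducer Smad9 (-1.76 ± 0.10) and the feedback inhibitor Smad6 (-1.38 ± 0.08). Id3 (-0.16 ± 0.08) and Smad7 (0.12 ± 0.06) were not called.

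Wnt pathway genes had 17 falls (31.5%) and 3 rises (5.56%) among 54, of which 34 were expressed, with a median of -0.14. The rises were Dkk2, an antagonist (1.59 ± 0.17), Wnt5a, a non-canonical ligand (0.87 ± 0.13), and Lrp5, a co-receptor (0.56 ± 0.09), and they numbered 5 without vector control array 3. Wnt5a read 6.68, 6.74 and 6.76 on the vector control arrays and 7.77, 7.40 and 7.60 on the mouse Ape1 arrays. Among the falls were the enhancer Rspo3 (-1.37), the receptors Fzd6 (-0.99) and Fzd7 (-0.95), and the nuclear effectors Tcf7 (-1.25) and Lef1 (-0.65). Of 31 Notch and Hedgehog genes, 24 of them expressed, 2 rose (6.45%) and 6 fell (19.4%), or 1 and 6 with chromosome medians subtracted. The ligand Jag1 at -0.94 ± 0.06 and the Notch target Hes1 at -0.66 ± 0.08 were both down.

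Of 32 fibroblast growth factor genes, 22 of them expressed, 6 rose (18.8%) and 7 fell (21.9%). Rises numbered 3 without mouse Ape1 array 2, or 3 with array medians subtracted. Along with the ligand Fgf7, the receptors Fgfr1 (8.46, 8.32 and 8.26 on the vector control arrays and 6.81, 6.75 and 6.97 on the mouse Ape1 arrays) and Fgfr2 fell, with differences of -1.50 ± 0.08 and -1.27 ± 0.12, and Fgf2 fell by 0.90 ± 0.09. The phosphatases induced by ERK signalling, Dusp4 and Dusp5, rose by 1.61 ± 0.11 and 0.62 ± 0.12. Other growth factors and receptor kinases gave 14 rises (24.6%) and 11 falls (19.3%) of 57, of which 41 were expressed. With array medians subtracted there were 12 rises and 13 falls. Mertk, a receptor for dying cells, rose by 1.03 ± 0.13, and Igf2r, the imprinted mannose 6-phosphate receptor, by 1.18 ± 0.05. Ereg, an EGF receptor ligand, fell by 2.04 ± 0.10, from 8.93, 9.03 and 8.81 to 6.98, 6.99 and 6.68. Pdgfra and its ligand Pdgfc fell, with differences of -1.19 ± 0.19 and -1.29 ± 0.08, and Pdgfd rose by 0.76 ± 0.16.

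Adhesion genes went both ways within each family. The shares over all genes are 9.75% and 10.2%, and over expressed genes 16.5% and 16.7%. Cdh2, N-cadherin, read 11.13, 11.15 and 11.19 on the vector control arrays and 12.50, 12.45 and 12.49 on the mouse Ape1 arrays and rose by 1.32 ± 0.05 (adjusted p = 4.14e-06), and Cdh18 rose by 2.15 ± 0.13. Cdh11 fell, as did Pcdh19 (-2.30), Pcdh17 (-1.85) and Fat4 (-1.49). Altogether 5 of 32 cadherins and protocadherins, 15 of them expressed, rose (15.6%) and 9 fell (28.1%), or 3 and 9 with array medians subtracted. Integrin and laminin subunits had 6 rises (18.8%) and 5 falls (15.6%) of 32, of which 17 were expressed, or 6 and 6 with array medians subtracted. Itga3, a laminin receptor chain, read 9.26, 9.20 and 9.33 on the vector control arrays and 10.96 to 11.05 on the 3 mouse Ape1 arrays, and rose by 1.74 ± 0.06 (adjusted p = 1.80e-06), and Itga6, another, by 0.80 ± 0.09. Lama4, a laminin chain, fell by 1.74 ± 0.15 and ended near background. Immunoglobulin-type adhesion molecules had 8 rises (19.5%) and 5 falls (12.2%) of 41, of which 21 were expressed. Alcam rose by 1.23 ± 0.09 although the human APE1 line was below the vector control, at 6.50, 6.85 and 6.83 against 8.68, 8.68 and 8.68. Axon guidance genes had 10 rises (16.1%) and 12 falls (19.4%) of 62, of which 40 were expressed. The counts were 12 and 9 with chromosome medians subtracted, and rises numbered 6 without mouse Ape1 array 1. The semaphorin receptors Nrp1 and Nrp2 rose by 0.90 ± 0.06 and 1.38 ± 0.07, while the ligand Sema3d fell by 2.50 ± 0.10 to a value near background, the ligand Slit2 fell by 1.19 ± 0.06 and the netrin receptor Unc5b fell by 1.41 ± 0.09.

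Among 75 mesenchymal transcription factors, 52 of them expressed, 23 fell (30.7%) and 11 rose (14.7%). Rises numbered 7 without mouse Ape1 array 3 and 7 with array medians subtracted. Prrx1, a homeobox factor of limb mesenchyme, read 9.89, 9.85 and 9.87 on the vector control arrays and 8.09, 7.97 and 7.96 on the mouse Ape1 arrays, a difference of -1.86 ± 0.07 (adjusted p = 2.95e-06), with the human APE1 line near the vector control at 9.88, 9.73 and 9.71. Further falls were of Twist2 (-1.32 ± 0.09), Eya4 (-2.32 ± 0.10) and Zeb1 (-0.68 ± 0.05). Hmga2, a chromatin protein of growing mesenchyme, rose by 0.63 ± 0.07 and Runx1 by 0.63 ± 0.07. Of 39 Hox genes, 29 of them expressed, 10 fell (25.6%) and 1 rose (2.56%), the rise being Hoxd8 (0.73 ± 0.09). Hoxc8 read 8.87, 8.81 and 8.69 on the vector control arrays and 7.30, 7.25 and 7.24 on the mouse Ape1 arrays and fell by 1.52 ± 0.06 (adjusted p = 5.66e-06), and 8 of the 10 falls lie in the HoxC cluster on chromosome 15. With chromosome medians subtracted 4 Hox genes fell and 3 rose. Of 46 imprinted genes 6 rose and 7 fell. Dlk1, a Notch-like surface protein, fell by 2.42 ± 0.13, and Phlda2, which limits placental growth, rose by 1.45 ± 0.15 from near background, 4.12, 3.91 and 3.73, to 5.57, 5.12 and 5.41.

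Cell-cycle genes went both ways, and the cyclins and kinases did so in shares near those of all expressed genes, 16.5% and 16.7%. Ccnd1 and Ccnd2, the D cyclins that drive entry into the cycle, rose by 0.74 ± 0.06 and 0.70 ± 0.06, and their kinase Cdk6 by 0.53 ± 0.07. Ccnd2 read 10.38, 10.38 and 10.34 on the vector control arrays and 11.08, 11.11 and 11.02 on the mouse Ape1 arrays, with the human APE1 line far lower at 8.04, 8.09 and 8.19. Altogether 6 of 30 cyclins and kinases, all expressed, rose (20%) and 5 fell (16.7%), or 6 and 2 with chromosome medians subtracted. Falls numbered 2 without vector control array 2 or mouse Ape1 array 1 or 3 and 3 without vector control array 1 or 3. Replication and E2F target genes had 12 rises (23.5%) and 9 falls (17.6%) of 51, all expressed. The counts were 7 and 9 with array medians and 8 and 5 with chromosome medians subtracted. Falls numbered 2 without vector control array 2 or mouse Ape1 array 1 and 3 without vector control array 3 or mouse Ape1 array 2. They numbered 5 without vector control array 1 or mouse Ape1 array 3. Pole2, a subunit of DNA polymerase epsilon, rose by 0.98 ± 0.06, and Pcna, the replication clamp, was not called (-0.04 ± 0.05). Mitosis and spindle genes had 17 falls (30.4%) and 7 rises (12.5%) of 56, all expressed. The counts were 19 and 1 with array medians and 13 and 2 with chromosome medians subtracted. Their rises numbered 2 without vector control array 2 or mouse Ape1 array 2 and 3 without vector control array 1 or mouse Ape1 array 1 and 4 without vector control array 3 or mouse Ape1 array 3. Among the falls were Hmmr, a spindle protein, at -0.51 ± 0.08, Cdca3 at -0.43 ± 0.08 and Aurkb, a chromosomal passenger kinase, at -0.30 ± 0.05.

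Genes of energy metabolism went both ways. The shares over expressed genes, to be set beside those of these lists, are 16.5% up and 16.7% down. Of 37 genes of glycolysis and glucose uptake, 28 of them expressed, 6 rose (16.2%) and 5 fell (13.5%). The counts were 4 and 5 with array medians and 8 and 2 with chromosome medians subtracted. Rises numbered 3 without vector control array 1 or mouse Ape1 array 1 or 2 or 3. Falls numbered 3 without vector control array 1 or 3 or mouse Ape1 array 3. The glucose transporter Slc2a1 read 10.08, 10.15 and 10.11 on the vector control arrays and 10.79, 10.83 and 10.82 on the mouse Ape1 arrays, a rise of 0.70 ± 0.05, and the enzymes Eno1 and Pgk1 rose by 0.64 ± 0.08 and 0.48 ± 0.05. Among the 5 falls were Bpgm (-0.53), Slc2a6 (-0.40) and Eno2 (-0.29), the last of which was lost with chromosome medians subtracted. Of 36 genes of pyruvate entry and the citric acid cycle, all expressed, 8 rose (22.2%) and 7 fell (19.4%). The counts were 3 and 8 with array medians and 5 and 5 with chromosome medians subtracted. Rises numbered 3 without vector control array 3 or mouse Ape1 array 1 and 4 without vector control array 2 or mouse Ape1 array 2 or 3. Falls numbered 4 without mouse Ape1 array 1. Pdk4, a kinase that blocks pyruvate dehydrogenase, read 10.37, 10.40 and 10.35 on the vector control arrays and 9.47, 9.55 and 9.38 on the mouse Ape1 arrays but 11.32, 11.42 and 11.54 in the human APE1 line. The mouse Ape1 line was thus below both, with differences of -0.91 ± 0.07 against the vector control and -1.96 against human APE1 (adjusted p = 5.37e-06). The respiratory chain had 9 rises and 9 falls of 69, or 3 and 8 with array medians and 6 and 3 with chromosome medians subtracted, and rises numbered 4 without mouse Ape1 array 1 or 2 and 5 without vector control array 2 and falls numbered 2 without vector control array 3 or mouse Ape1 array 1 and 3 without vector control array 1 or 2 or mouse Ape1 array 3. Cholesterol genes had 13 falls (32.5%) and 4 rises (10%) of 40, all expressed. Falls numbered 8 without vector control array 2 or mouse Ape1 array 1 or 3. The synthesis enzymes Hmgcs1 and Sqle fell, with differences of -0.46 ± 0.08 and -0.50 ± 0.08, and the exporter Abca1 fell by 1.15 ± 0.12. Endoplasmic reticulum chaperones and degradation genes had 7 rises (19.4%) and 6 falls (16.7%) of 36, of which 35 were expressed. With array medians subtracted there were 4 rises and 6 falls. Sel1l, a ubiquitin ligase adaptor, fell by 1.02 ± 0.07, and Xbp1, a factor of the unfolded protein response, rose by 0.44 ± 0.07. Lysosomal genes had 9 rises (20.5%) and 8 falls (18.2%) of 44, of which 38 were expressed. The counts were 6 and 10 with array medians and 8 and 10 with chromosome medians subtracted. Hexa, a hexosaminidase subunit, read 8.86, 8.86 and 8.90 on the vector control arrays and 10.26, 10.23 and 10.18 on the mouse Ape1 arrays and rose by 1.35 ± 0.06, and the cathepsin Ctsl fell by 1.18 ± 0.08.

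Of 526 microRNA genes on the arrays 34 rose (6.46%) and 7 fell (1.33%), at a median level of 4.53, low beside the median of 5.70 over all values. With array medians subtracted 29 rose and 11 fell, and with chromosome medians subtracted 39 rose and 38 fell. These are values of the microRNA genes, not of the mature microRNAs. The microRNAs named were chosen after their values were seen. Mir125b-1 on chromosome 9 read 6.54, 6.42 and 5.93 on the vector control arrays and 8.59, 7.43 and 7.46 on the mouse Ape1 arrays, without overlap but with 1 mouse Ape1 array apart from the others, and rose by 1.53 ± 0.31 (adjusted p = 0.0122). Mir31 on chromosome 4 read 6.63, 7.25 and 7.19 on the vector control arrays and 8.31, 7.88 and 8.01 on the mouse Ape1 arrays and rose by 1.05 ± 0.18. Mir125a and Mirlet7e, neighbours in 1 cluster on chromosome 17, rose by 0.74 ± 0.18 and 0.81 ± 0.14, while the third gene of that cluster, Mir99b, had a level of 7.71 on the vector control arrays and 7.74 on the mouse Ape1 arrays and was not called. The mature strands are shown from RefSeq (GRCm38.p6) with the seed, bases 2 to 8, in capitals, because miR-125b and miR-125a share theirs, and the seed pairs with target messages.
miR-125b-5p (chr9:41581940-41581961, plus): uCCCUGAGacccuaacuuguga
miR-125a-5p (chr17:17830817-17830840, plus): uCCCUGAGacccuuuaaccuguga
let-7e-5p (chr17:17830366-17830387, plus): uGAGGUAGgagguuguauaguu
miR-31-5p (chr4:88910614-88910635, minus): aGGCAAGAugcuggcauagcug
The calls of Mir125b-1, Mirlet7e and Mir31 held without each single array, while that of Mir125a was lost without vector control array 1 or 2 or mouse Ape1 array 1 or 3, with adjusted p up to 0.088 over the 6 fits, and with the human APE1 arrays left out of the fit.

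Most calls among transcript clusters without a gene assignment were rises. Of 12100 unassigned clusters 994 rose (8.21%) and 126 fell (1.04%), with a median level of 5.11 and a median difference of 0.09, and with array medians subtracted 867 rose and 200 fell. Of clusters with a symbol 9.43% rose and 9.81% fell, at a median level of 5.91.

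Differences were not spread evenly over the genome. Over 13246 expressed genes on 20 chromosomes, the autosomes and X, the median difference was -0.02. Chromosome medians ran from -0.17 for chromosome 15 to 0.35 for chromosome 12. The Y chromosome, on which Rbmy1a1 lies, and mitochondrial genes were left out of this description. On chromosome 12, 265 of 480 expressed genes rose, or 55.2%, where 16.5% is the share over expressed genes. The 3 mouse Ape1 arrays had chromosome 12 medians of 0.36, 0.38 and 0.34 above the vector control mean, and the human APE1 line had 0.07. On chromosome 15, 206 of 545 fell (37.8%), against 16.7%. Chromosome 5 had a median of 0.16 with 300 of 854 up. In the human APE1 line the chromosome medians against the vector control ran from -0.18 to 0.13. Genes named above that lie on chromosome 12 include Jdp2, Pole2 and Hif1a among rises and Fos and Sel1l among falls, and the Hox falls of chromosome 15 are noted above.

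**Figure D4:**
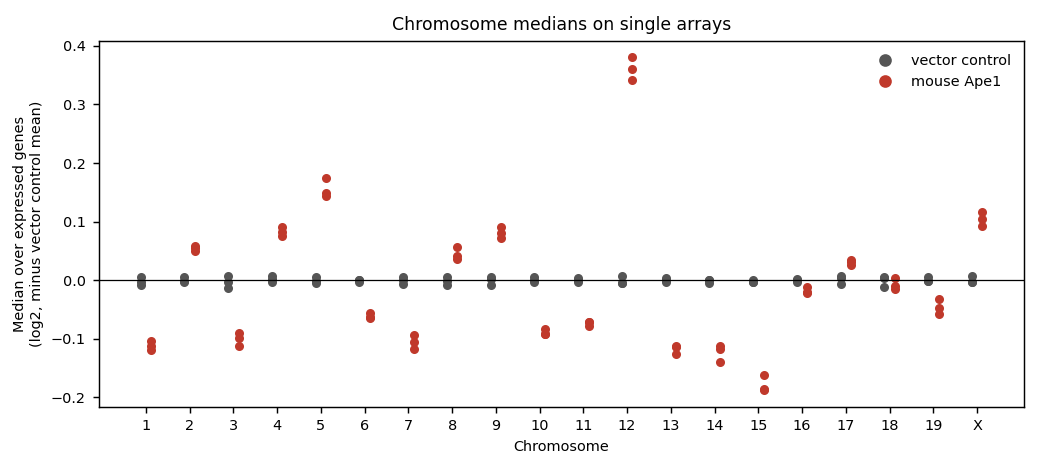
Median over the expressed genes of each autosome and X on single arrays, as the log2 value minus the vector control mean of the same genes. Grey points are the 3 vector control arrays and red points the 3 mouse Ape1 arrays. Chromosome 12 stands at 0.34 to 0.38 and chromosome 15 lowest in all 3 mouse Ape1 arrays.

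Along a chromosome the shift was uneven. Expressed genes were taken in RefSeq order in windows of about 40, a description chosen after the values were seen. On chromosome 12 window medians ran from -0.07 to 0.72 over 10 windows. Chromosome 9 had medians of 0.15 to 0.36 in its first 10 windows and -0.12 to -0.02 in its last 6, while its whole median was 0.07. Chromosome X had -0.10 to -0.02 in its first 4 windows and 0.15 to 0.40 in its last 6. The lowest window of any autosome or X was on chromosome 14, at -0.56. The window medians of chromosomes 5 and 15 stayed between -0.02 and 0.30 and between -0.28 and -0.05.

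**Figure D5:**
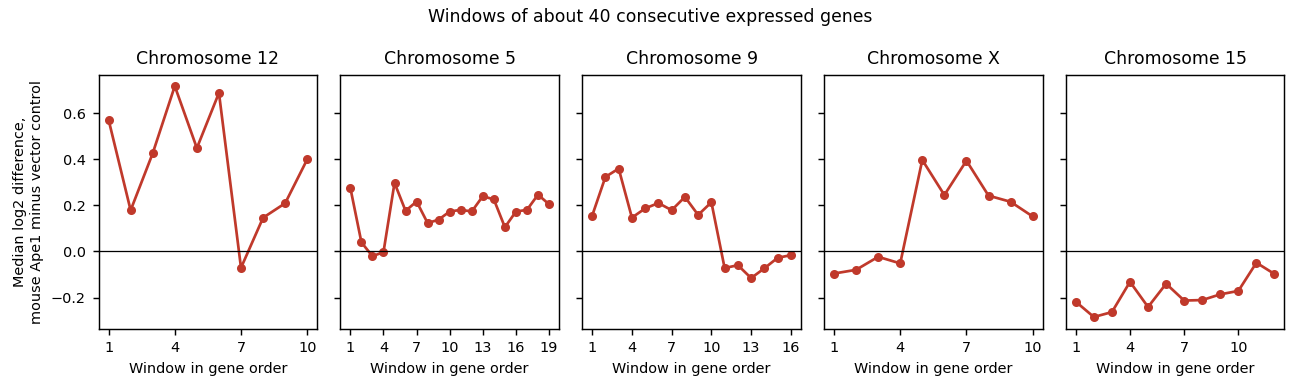
Median difference between the mouse Ape1 line and the vector control in consecutive windows of about 40 expressed genes along 5 chromosomes, in gene order on the horizontal axis and log2 on the vertical. Chromosome 9 is above 0 over its first 10 windows and below 0 over its last 6, and chromosome X is below 0 over its first 4 windows and above 0 over its last 6.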

How the data were processed

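Total RNA of 9 dishes was measured on Affymetrix whole-transcript arrays. Per the labels, the authors made the deposited values with Expression Console as RMA log2 signals of a core-exon analysis, and the submitters' processing notes name Partek. A table deposited by the authors gave the gene symbols and, per the file headers, holds their group means, ratio of vector control to mouse Ape1 and p-value of each comparison from an analysis of variance. No label or header used here names the arrays' genome build. The values were used as deposited and fitted with limma 3.58.1 in R 4.3.3 (3 group means over all 9 arrays, 6 residual degrees of freedom, median standard error 0.11), with two-sided tests and Benjamini-Hochberg adjustment over 41345 transcript clusters. A symbol took its brightest cluster by the mean over all 9 arrays. In a test on simulated data, 156 of 200 simulated 2-fold differences (78%) were recovered. The rest of the 41345 simulated clusters had no difference, whereas 6681 were called in the data. The 78% therefore does not give the share recovered in the real comparison. The number of arrays limits the precision.

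Named genes are the 15 largest rises and falls among called genes without overlap between the lines, leaving out predicted, non-coding, olfactory and multicopy symbols, and from each list called members with large differences and members that complete a pathway. Some genes that met this rule are not reported here. The members and gene lists were chosen with earlier results of these data known. Lists were described by counts and medians. Alternatives were other arrays in the fit, each array left out in turn, array medians or chromosome medians subtracted, quantile normalisation again, dim clusters left out, an intensity trend and the replicate block. Chromosome assignments, gene order and sequences came from RefSeq tables (GRCm38.p6). Figures were drawn with matplotlib 3.10.9. Replicate numbers did not pair the arrays, as same-numbered arrays of both lines deviated from their group means with correlations of -0.07 to 0.05.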

Additional observations from a re-analysis of the deposited data

How the results depend on the processing

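All 30 leading genes kept their direction and their call in each of 13 alternative fits, 390 values in all. They were picked from these same arrays for large differences without overlap, so this result was largely set by that choice. The count of called transcript clusters, 6681, was 5927 with only the 6 arrays of both lines, 6309 to 7558 under other scalings, filters and variance models, and 4433 to 5417 with 1 array left out, the lowest being 4433 without mouse Ape1 array 1. Over genes, 4917 became 3457 to 3911 with 1 array left out. Counted over all clusters with a symbol instead of 1 for each gene, 5202 clusters were called. With the replicate number as a replicate block, 5569 clusters and 4034 genes were called, and since the numbers did not pair the arrays this says nothing about the size of the effects. The share of rises among called clusters was 56.2% as deposited, 44.5% with array medians subtracted, 46.7% after quantile normalisation was run again and 57.8% with chromosome medians subtracted, and among genes 48.9%, 36.1% and 50.4% for the deposited values, array medians and chromosome medians. Subtracting array medians moved the median difference of all clusters by -0.07. Of the 98 counts by list and direction, 50 moved by over 1.5 times in at least 1 alternative, 17 of the 98 with array medians subtracted, 25 with chromosome medians subtracted and 20 without mouse Ape1 array 3. Dim transcripts limit what can be said of Prl's relatives, the receptors at background and most microRNA genes.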
